A study of Oryza sativa with 4 samples.

Results

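The 38 genes described here encode rice transcription factors of families known for their part in stress responses, and they were chosen by name: each has a symbol or synonym made of ERF, DREB, WRKY, NAC or BZIP and a number. They are 38 genes of the RefSeq gene table, against 17905 genes that the array reads in all. A probe set on the array was assigned to 30 of them, and each of these genes was read through 1 probe set, the one with the highest mean over the 4 arrays. Transcript levels were measured on one-colour Affymetrix rice arrays, in coleoptiles of Oryza sativa cv Nipponbare, the sheath around the shoot of a germinating grass. All seeds germinated for 4 days at 28 °C in darkness. The 2 aerobic arrays hold coleoptiles from air, with the primary leaf cut out by hand. The 2 anoxic arrays hold coleoptiles from a sealed chamber filled with nitrogen and hydrogen, which form no such leaf. The cutting is named for the aerobic arrays alone, so its effects cannot be told apart from those of oxygen. The labels are silent on whether replicates were grown apart, and every p-value here reflects array-to-array spread that may be only technical.

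ERF and DREB proteins bind DNA through an AP2 domain, and DREB factors are known for the response to cold and drought. WRKY factors carry the short peptide that names them and bind W-box elements, many of them in defence. NAC factors act in development and in stress, and BZIP factors bind ACGT-containing elements, among them the elements through which abscisic acid acts and those of the response to unfolded protein in the endoplasmic reticulum.

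The names do not give 5 separate families. Of the 14 genes with an ERF number, 13 also carry a DREB name, and the exception is ERF78 (LOC4344233), better known as FZP, which is needed for spikelet formation. ERF24 is thus another name of DREB1A. The genes fall into 13 DREB genes, ERF78 alone, 6 WRKY genes, 10 NAC genes and 8 BZIP genes. The name NAC4 belongs to 2 of the genes, called NAC068 and NAC2 here, and BZIP60 to 2, called BZIP50 (LOC4341554) and BZIP60 (LOC4344086). The 8 genes without a probe set in the annotation used were DREB1F, DREB1H, DREB1I, DREB1J, DREB2C, NAC074, NAC077 and BZIP19, and they are not analysed here.

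Levels are given as log2(intensity + 1), and fold changes on that scale understate the change of dim genes. A level of 4.05, the highest group mean of any of 64 reporter probe sets for sequences foreign to the plant, served as background. Of the 30 measured genes, 23 had a mean above it in aerobic and 25 in anoxic coleoptiles, against 66.8% and 65.7% of all 17905 genes. By family, 6 of 8 DREB genes lay above it in air and 6 in anoxia. All 6 WRKY genes did so in both groups. Of 8 NAC genes it was 5 in air and 6 in anoxia, and of 7 BZIP genes 6 and 7. The differences in number come from NAC45 and BZIP02, at 3.69 and 3.52 in air, while DREB1A stood just above the line in anoxia with a mean of 4.11. DREB2A, DREB2D, ERF78, NAC010 and NAC7 were at or below background in both groups, at 2.62 to 3.49, and were not tested.

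**Figure D1:**
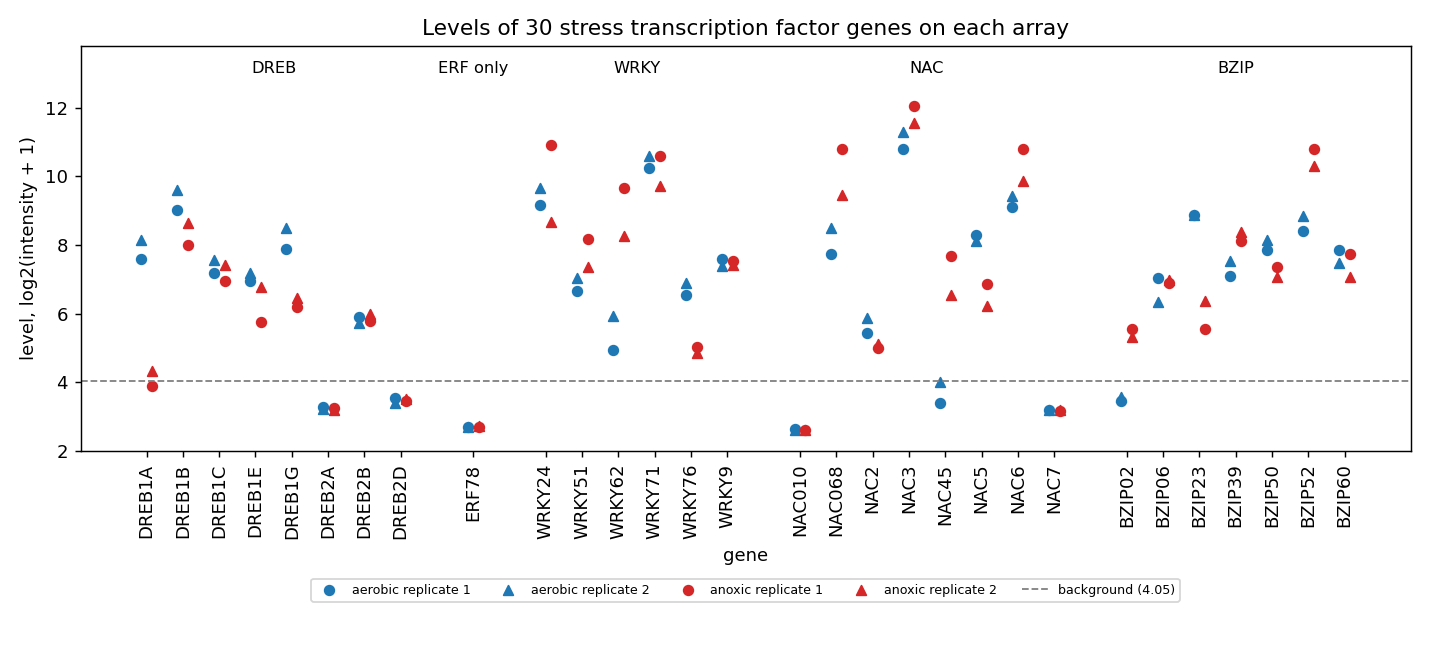
Level of each of the 30 measured genes as log2(intensity + 1) on the 2 aerobic (blue) and 2 anoxic (red) arrays, by family, with the background of 4.05 as a dashed line. Each point is 1 array: DREB1A drops to the dashed line in anoxia, NAC45 and BZIP02 rise from below it, and the anoxic points of WRKY24 lie far apart.

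Testing with limma covered every probe set whose mean level reached 4, and a call needed both an adjusted p below 0.05 and a log2 change of 1 or more in size. Of the 38 genes 25 could be tested. NAC45 and BZIP02 reached that mean only through their anoxic arrays, so little but a higher call was open to them. WRKY62, NAC068, NAC45, BZIP02 and BZIP52 were called higher in anoxic coleoptiles, and DREB1A, DREB1G, WRKY76, NAC5 and BZIP23 were called lower. These 5 and 5 compare with 15.9% of all tested genes called higher and 18.0% called lower, and the 10 calls together with 33.9% called in either direction, so the share called was near that of all genes. Without the fold threshold 12 of the 25 passed, against 42.6% of all tested genes. The median log2 change was -0.00 over the 30 measured genes and 0.01 over all 17905. Both anoxic arrays lay above both aerobic arrays for 9 tested genes and below them for 9 more, and the groups overlapped for 7. Among all tested genes 40.7% were higher in this sense, 37.1% lower and 77.9% did not overlap in either direction.

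**Figure D2:**
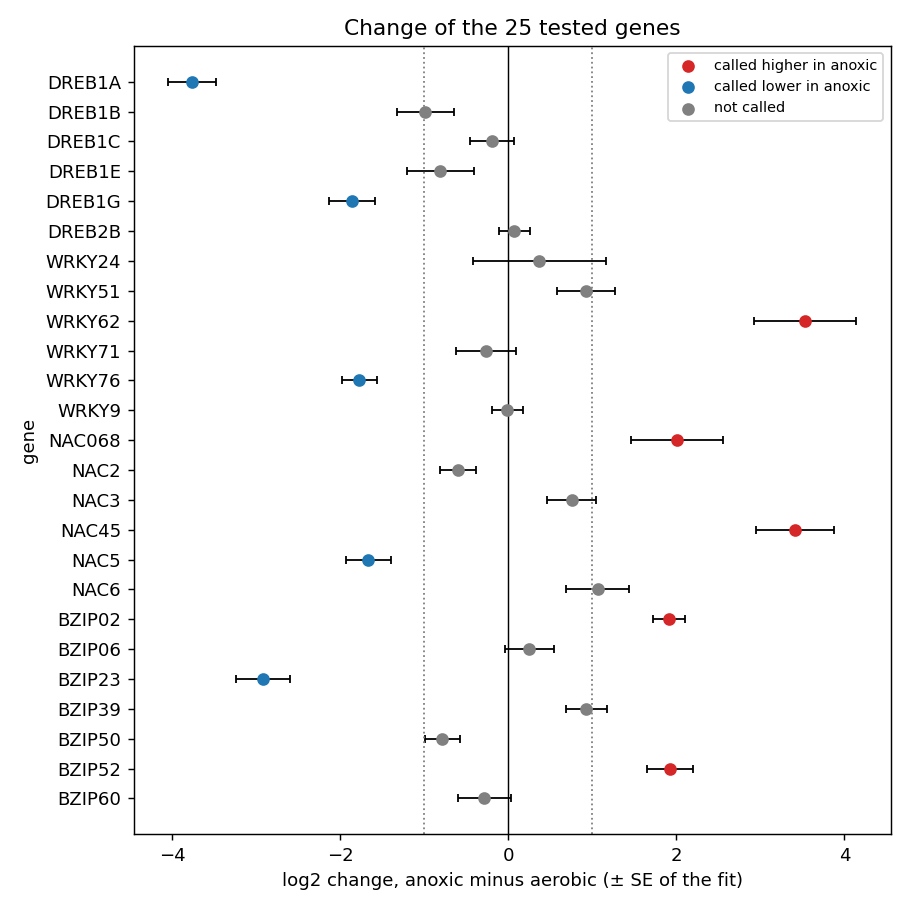
Log2 change, anoxic minus aerobic, of the 25 tested genes with the SE of the limma fit, red where called higher, blue where called lower and grey where not called. Dotted lines mark a log2 change of 1 in each direction; no DREB gene lies beyond the right-hand line, and called WRKY, NAC and BZIP genes lie on both sides.

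Of the 6 tested DREB genes 0 were called higher and 2 lower, against 15.9% and 18.0% of all tested genes. DREB1A (ERF24, LOC4347620), a factor whose overexpression is known to raise tolerance of cold, drought and salt, read 7.60 and 8.15 on the aerobic arrays and 3.90 and 4.33 on the anoxic ones. The anoxic arrays sit at the background, one on either side of it, and far below both aerobic arrays. DREB1A fell by 3.76 ± 0.29 on the log2 scale (SE, 2 arrays a group; limma, adjusted p = 0.00247). With 1 of its 2 anoxic arrays below background the size is a rough one: the measured means give a 13.6-fold lower level, and 12.9-fold with that array set to the background. It kept its call whichever array was left out, with changes from -4.04 to -3.49. DREB1G (ERF25, LOC4330306), a close relative, read 7.87 and 8.48 in air and 6.19 and 6.45 in anoxia. The groups did not overlap, and the gene fell by 1.86 ± 0.28 (adjusted p = 0.0105). Leaving out aerobic replicate 2 ended the call (adjusted p = 0.0621), as did leaving out anoxic replicate 1 (0.0679) or anoxic replicate 2 (0.0576).

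DREB1B (ERF31), another cold-responsive member of the same subgroup, read 9.02 and 9.61 in air and 8.01 and 8.65 in anoxia. Both anoxic arrays were below both aerobic arrays, and the difference of -0.99 ± 0.34 did not pass (adjusted p = 0.0819). DREB1E (ERF30) differed by -0.81 ± 0.40 (adjusted p = 0.178), with anoxic arrays at 5.75 and 6.79 that were further apart than the aerobic ones. Its change was -0.29 without anoxic replicate 1 (adjusted p = 0.383) and -1.33 without anoxic replicate 2 (adjusted p = 0.0493, a call). The remaining tested genes of the group overlapped between conditions: DREB1C (ERF26) differed by -0.19 ± 0.26, and DREB2B (ERF42), a factor of the heat and drought response, by 0.07 ± 0.18. In the gene table DREB1B, DREB1H and DREB1A follow one another with no other protein-coding gene between them. The neighbours DREB1B and DREB1A thus read -0.99 and -3.76, and DREB1H was not measured. The median over the 8 measured DREB genes was -0.50, and it was -0.17 without anoxic replicate 1 and -0.87 without anoxic replicate 2.

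Among the WRKY genes 1 of 6 was called higher and 1 lower, against 15.9% and 18.0% of all tested genes. The called WRKY genes are neighbours. WRKY62 (LOC4347070) and WRKY76 (LOC4347069) stand side by side in the gene table, with no protein-coding gene between them, and both are known to weaken resistance to blast fungus or to bacterial blight when overexpressed in rice. WRKY62 read 4.93 and 5.94 in air and 9.67 and 8.27 in anoxia. Every anoxic array lay above every aerobic array, though replicates differed by 1.00 and 1.40. The gene rose by 3.53 ± 0.61 on the log2 scale, an 11.6-fold higher level (limma, adjusted p = 0.0150). WRKY76 read 6.55 and 6.89 in air against 5.04 and 4.85 in anoxia. It fell by 1.77 ± 0.21 (adjusted p = 0.00618), with replicates closer together than those of WRKY62.

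Both WRKY calls depended on single arrays. WRKY62 held its call only when anoxic replicate 2 was the array left out; the adjusted p was 0.116 and 0.0820 without aerobic replicates 1 and 2, and 0.0619 without anoxic replicate 1. Its log2 change ran from 2.83 without anoxic replicate 1 to 4.23 without anoxic replicate 2. That of WRKY76 was lost without aerobic replicate 2 (0.0559). The other WRKY genes were not called. WRKY51, known with WRKY71 as a repressor of gibberellin-induced alpha-amylase expression in aleurone cells, read 6.65 and 7.04 in air and 8.18 and 7.35 in anoxia, a difference of 0.92 ± 0.35 (adjusted p = 0.102). WRKY71 (LOC4328512) read 10.24 and 10.59 in air and 10.58 and 9.71 in anoxia, which overlap, and differed by -0.27 ± 0.36. WRKY24, a repressor of gibberellin and abscisic acid signalling in the same cells, read 9.16 and 9.67 in air and 10.90 and 8.67 in anoxia. The anoxic arrays of WRKY24 lay on either side of the aerobic ones, and its difference of 0.37 ± 0.79 was smaller than its error. It was -0.74 without anoxic replicate 1 and 1.49 without anoxic replicate 2. WRKY9 differed by -0.01 ± 0.18, with levels of 7.37 to 7.61 on the 4 arrays. The median over the 6 genes was 0.18. It turned to -0.38 without anoxic replicate 1 and was 0.75 without anoxic replicate 2.

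Of 8 measured NAC genes 6 were tested. Of these, 2 were called higher and 1 lower, against 15.9% and 18.0% of all tested genes. NAC45 reached the mean needed for testing only through its anoxic arrays, so little but a higher call was open to it. NAC45 (LOC4349650), a gene induced by drought and salt whose overexpression is known to raise tolerance of both, read 3.38 and 4.00 in air, at background, and 7.67 and 6.53 in anoxia. It was at least 8.30-fold higher in anoxia (limma, adjusted p = 0.00871), counted from the background to the anoxic mean of 7.10 ± 0.81 (SD, n = 2). The call was lost without aerobic replicate 1 (0.0900) or aerobic replicate 2 (0.0734). NAC068 (LOC4327485), known as OsNAC4, an inducer of the hypersensitive cell death that follows recognition of bacteria, read 7.73 and 8.50 in air and 10.80 and 9.46 in anoxia. It rose by 2.01 ± 0.55 (adjusted p = 0.0474), with arrays that did not overlap but replicates that differed by 0.77 and 1.34. With the replicate number as a block it was not called (adjusted p = 0.0771). Leaving out any single array ended the call (adjusted p 0.0504 to 0.244), and the change was 1.34 without anoxic replicate 1 and 2.68 without anoxic replicate 2.

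NAC5 (LOC4349963), a factor induced by abscisic acid and drought, went the other way. It read 8.28 and 8.13 in air and 6.85 and 6.23 in anoxia, and it fell by 1.66 ± 0.27 (adjusted p = 0.0130). Its other probe sets read -1.38 (adjusted p = 0.0416) and -1.20 (0.0657), the same direction on dimmer probe sets. Without aerobic replicate 1 or 2 the call was lost (0.107 and 0.0948). NAC6 (LOC4325006), also named SNAC2, a factor of the response to cold, salt and drought, read 9.11 and 9.42 in air and 10.81 and 9.85 in anoxia. Its anoxic arrays were above its aerobic ones, and the difference of 1.06 ± 0.38 did not pass (adjusted p = 0.0889). It was 0.59 without anoxic replicate 1 (adjusted p = 0.177) and 0.36 as the mean over its probe sets (0.182), and it passed at 1.54 without anoxic replicate 2 (0.0474) and at 1.12 under quantile normalization (0.0402). NAC3 differed by 0.75 ± 0.29 (adjusted p = 0.104) from 11.05 in air, and NAC2, a factor of tillering, by -0.60 ± 0.22 (adjusted p = 0.0943). All 6 tested NAC genes had arrays that did not overlap between groups, 4 with anoxia higher and 2 with anoxia lower. Such a gap was common: 77.9% of all tested genes had it, 40.7% with anoxia higher and 37.1% with anoxia lower. The median over the 8 measured NAC genes was 0.38.

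**Figure D3:**
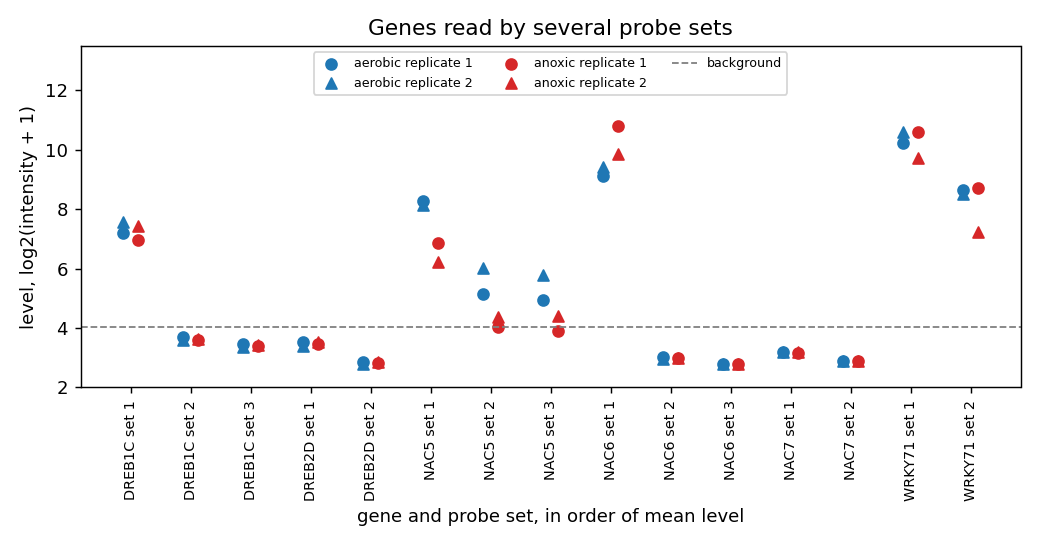
Levels as log2(intensity + 1) for the 6 genes with several probe sets, numbered in order of mean level, on aerobic (blue) and anoxic (red) arrays; set 1 represents the gene. NAC5 is lower in anoxia on each of its sets, both sets of WRKY71 overlap between groups, and the further sets of DREB1C and NAC6 lie below the background of 4.05.

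Of 7 measured BZIP genes, all tested, 2 were called higher and 1 lower, against 15.9% and 18.0% of all tested genes. BZIP02 reached the mean needed for testing only through its anoxic arrays, so little but a higher call was open to it. BZIP23 (LOC4330838), a central activator of abscisic acid responses in rice, read 8.87 and 8.88 in air and 5.54 and 6.37 in anoxia. The aerobic arrays were almost equal and the anoxic ones well below, and BZIP23 fell by 2.92 ± 0.32, a 7.57-fold lower level (limma, adjusted p = 0.00541). The call was lost without aerobic replicate 1 (0.0709) or 2 (0.0703), with changes of -2.92 in both. BZIP52 (LOC4341753), also named RISBZ5, belongs to a group of factors first known from seed storage gene promoters and is reported to lower cold and drought tolerance when overexpressed. It read 8.41 and 8.83 in air and 10.79 and 10.31 in anoxia, and rose by 1.93 ± 0.27 (adjusted p = 0.00902). Only the fit leaving out anoxic replicate 2 kept the call; the adjusted p was 0.0795 and 0.0626 without aerobic replicates 1 and 2, and 0.0503 without anoxic replicate 1. BZIP02 (LOC4325565) read 3.45 and 3.58 in air, at background, and 5.55 and 5.31 in anoxia. It was at least 2.60-fold higher in anoxia (adjusted p = 0.00407), a call lost without aerobic replicate 1 (0.0534).

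The BZIP factors of the endoplasmic reticulum stress response stayed under the fold threshold. BZIP50 (LOC4341554), which the sensor IRE1 activates by cutting its RNA, read 7.86 and 8.14 in air and 7.36 and 7.08 in anoxia. Its groups did not overlap, and the difference was -0.78 ± 0.21 (adjusted p = 0.0454). The level on the array does not tell the cut form from the uncut one. BZIP39, a membrane-bound factor of the same response, read 7.09 and 7.55 in air and 8.11 and 8.39 in anoxia, a difference of 0.93 ± 0.24 (adjusted p = 0.0432) in the other direction. Its only probe set is of a type that the manufacturer marks as open to cross-hybridisation. BZIP60 (LOC4344086) differed by -0.28 ± 0.31 and BZIP06 by 0.25 ± 0.29, both with overlapping arrays. The median over the 7 BZIP genes was 0.25, and -0.095 without aerobic replicate 2 and 0.60 without aerobic replicate 1.

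The median absolute difference between the anoxic arrays was 0.48 over the 25 tested genes, against 0.26 over all 12291 tested genes, and between the aerobic arrays 0.39 against 0.22. The sign of the gap differed between families. Anoxic replicate 1 read above anoxic replicate 2 for all 6 WRKY genes and for 5 of 6 NAC genes, and below it for all 6 tested DREB genes, while 54.8% of all tested genes were higher on replicate 1. The gap reached 2.23 for WRKY24, 1.40 for WRKY62 and 1.34 for NAC068, and -1.04 for DREB1E. Aerobic replicate 1 read below aerobic replicate 2 for 20 of the 25 genes, and for 62.7% of all tested genes. Genes measured on 1 array share that array, so these counts describe the 4 arrays, and what sets the replicates apart was not tested.

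**Figure D4:**
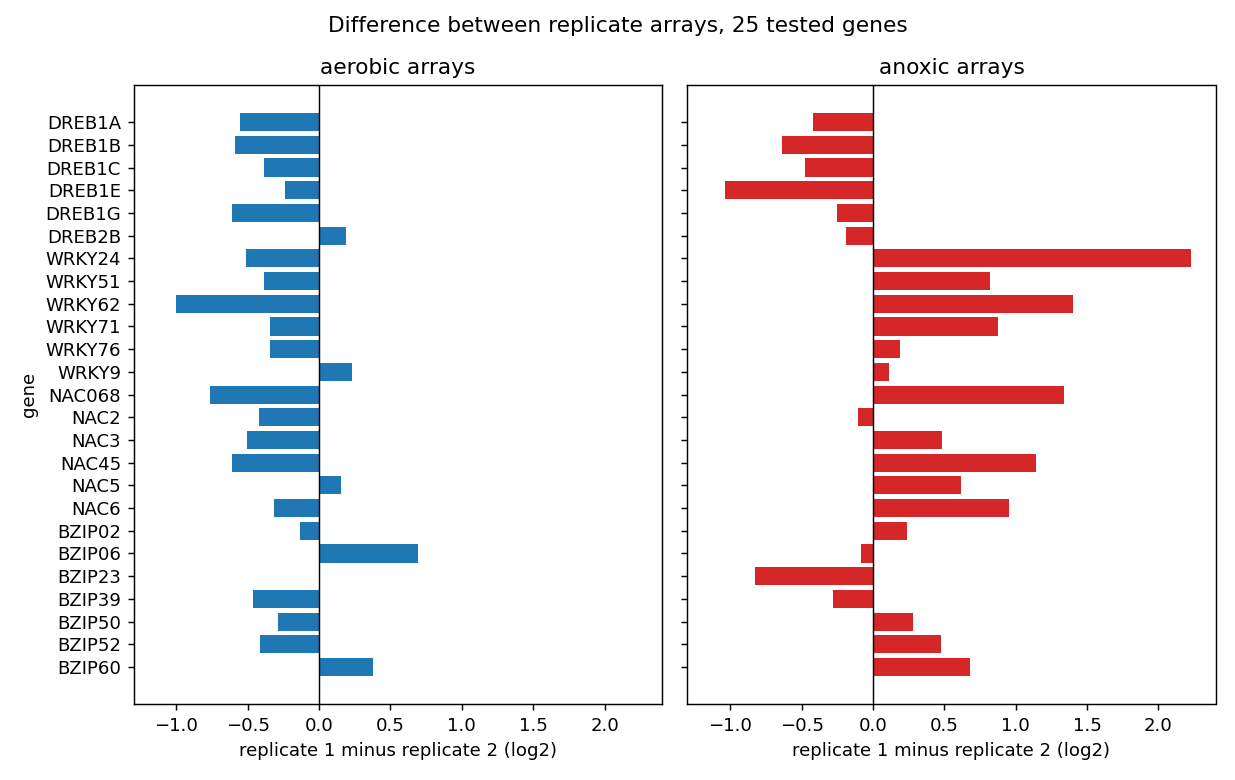
Log2 level on replicate 1 minus replicate 2 for the 25 tested genes, in aerobic (left) and anoxic (right) arrays. In anoxia all DREB bars point left and all WRKY bars point right, the longest being WRKY24 at 2.23.

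Genes upstream of these factors and genes they are known to control were listed by symbol. The list for abscisic acid signalling held SAPK kinases, receptors, VP1 and PP2C phosphatases of all kinds, whether or not they act in that signalling. Of its 58 tested genes 3 were higher (5.2%) and 12 lower (20.7%), against 15.9% and 18.0% of all tested genes. VP1, SAPK3 and SAPK9, all called, passed the filter through their brighter group alone. Little but a call in that direction was open to them. The median of this mixed list was 0.01 over 67 measured and -0.16 over the tested genes. The extremes were PP2C45 (LOC4337276), with a log2 change of 3.60 ± 0.44, and PP2C30 (LOC4332374), with -5.51 ± 0.45; both calls were lost without aerobic replicate 1 or 2. PP2C45 read 3.14 without anoxic replicate 1 and 4.06 without anoxic replicate 2. For PP2C30 1 anoxic array, at 3.70, was below background, and the change was -4.89 without anoxic replicate 1 and -6.13 without anoxic replicate 2. The numbers were 1 and 4 without aerobic replicate 1, 1 and 2 without aerobic replicate 2, and 6 and 7 without anoxic replicate 2. Of 13 tested MAP kinase genes, some of whose products phosphorylate WRKY and ERF factors, 1 was higher and 5 lower (0 and 2 without aerobic replicate 1, and likewise without aerobic replicate 2). MPK10 (LOC4326668) read 2.14 ± 0.34, a call lost without either aerobic array, and LOC4339633, which carries the names MAPK6 and MPK7, read -3.06 ± 0.25 and kept its call.

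Of 10 genes known to respond to dehydration, which DREB and BZIP factors activate, 7 were tested. RAB21 (LOC4350454), a dehydrin gene, read 10.69 and 10.28 in air and 12.26 and 11.64 in anoxia, and rose by 1.46 ± 0.30 (adjusted p = 0.0235; call kept only without anoxic replicate 2). The other 6 were not called. Over the 7 the median was -0.09, with 3 genes higher on both anoxic arrays, 3 lower and 1 overlapping. Among all tested genes 40.7% were higher in this sense and 37.1% lower. Diterpene phytoalexin genes, which WRKY62 and WRKY76 are known to hold down when overexpressed, were mostly dim: 9 of 19 measured were at background in both groups. The 8 that could be tested were all called lower, 5 without aerobic replicate 2. Of the 8, 5 reached the mean needed for testing only through their aerobic arrays, so little but a lower call was open to them, and the count is not evidence on the list. MAS (LOC4335093), a dehydrogenase gene of momilactone synthesis, was at least 8.23-fold lower (adjusted p = 0.00435, call lost without aerobic replicate 2, 0.0530). PBZ1 (LOC4352491), a pathogenesis-related gene, read 12.89 and 12.87 in air and 10.17 and 9.56 in anoxia and fell by 3.02 ± 0.26. Neither fit with a single aerobic array called it (adjusted p = 0.0550 and 0.0541). Among 5 genes matched by symbols of ethylene and submergence factors, 1 was lower. It was EIL1 (LOC4332697), a factor of the EIN3 type in ethylene signalling, at least 13.1-fold lower (limma, adjusted p = 0.000857). This EIL1 gene passed the filter through its aerobic arrays alone. A second gene named EIL1 (LOC107276358) read 11.26 in air and 10.61 in anoxia and was not called, with a difference of -0.65 (adjusted p = 0.0464) under the fold threshold. SK1 and SK2 entered this list by symbol alone, which does not show that they act in submergence, and they were not called.

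Other factor families served as a comparison, with no test between them. Over all tested genes 15.9% were called higher and 18.0% lower. Called genes in these families were 1 higher and 4 lower of 7 tested MYB genes and 2 and 3 of 14 heat shock factors. HOX genes had 1 and 6 of 17, BHLH genes 0 and 4 of 8, and MADS genes 0 and 2 of 4. GATA genes had 0 and 0 of 3, and zinc finger genes 1 and 1 of 4. ARF genes had 2 and 5 of 15, and IAA genes 0 and 12 of 20. Of 31 measured MADS genes 27 were at background in both groups. The called genes HSFA3, HSFB2A, Hox22, MADS27 and IAA20 (LOC4340245) reached the mean needed for testing only through their brighter group. Little but a call in that direction was open to them, so they add little to the counts. Several of these counts rest on single arrays: without either aerobic array the lower calls were 4 for IAA, 2 for ARF and 1 for BHLH genes, and without either anoxic array 9, 2 and 3 or 1. Those of HOX genes were 3 or 4, of MYB genes 1 or 2, of heat shock factors 1 to 4 and of MADS genes 0 to 2, by the array left out. The higher calls moved too: those of HOX genes were 0 in all 4 such fits, those of ARF genes 1, and those of heat shock factors 0 without either aerobic array. Zinc finger genes had 0 higher in all 4 fits and 1 lower only without aerobic replicate 1.

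**Figure D5:**
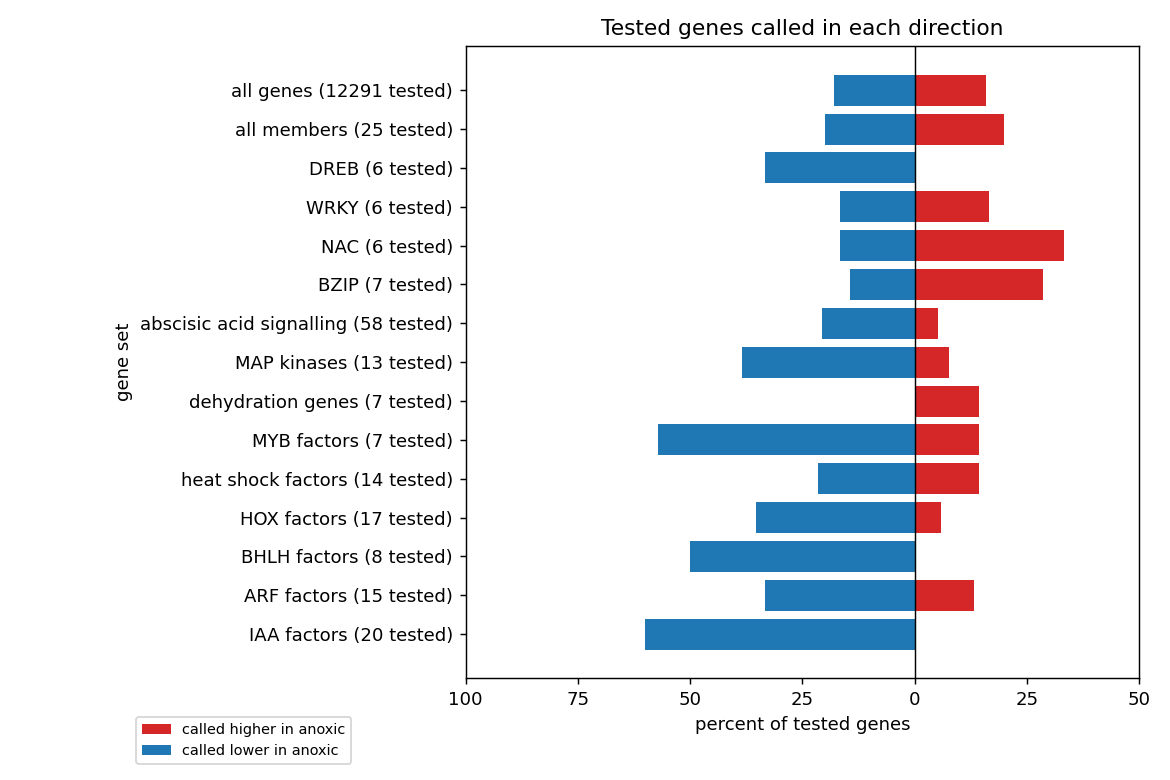
Percent of tested genes called higher (red, to the right) and lower (blue, to the left) in anoxic coleoptiles, for all genes, the stress factor families and 9 of the related lists, with the number tested. The bars of the stress factors rest on 6 or 7 genes each; over all genes 15.9% were higher and 18.0% lower.

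Most markers of leaf, seed and root, tissues that could be mixed in, were at background, with exceptions in leaf and seed. Of 4 measured leaf markers 3 were at background in both groups, and their summed intensity was 175 to 197 in aerobic and 179 to 201 in anoxic arrays. The exception was OsrbcS, at 7.32 in air and 7.37 in anoxia. Of 9 seed markers 7 were at background, with sums of 431 to 463 and 200.3 to 207. GLB read 8.46 in air and 6.78 in anoxia and was called lower, and GLUA-2 read 5.59 and 5.53. Both root markers were at background. Markers of dividing cells differed: 1 of 6 was at background in both groups, and 2 lay above it in air and 5 in anoxia. Their sums were 103 to 164 and 220.3 to 333. Of the 2 tested, 1 was called higher, against 15.9% of all tested genes. The part of these tissues and cells in the results was not tested. In whole coleoptiles, fewer cells of a kind and less transcript per cell cannot be told apart.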

How the data were processed

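The deposited values are linear intensities, normalized by the authors with GCRMA per the submitters' processing notes; its version is not given in the sources used here. Array medians were 7.36 to 7.55 as linear intensities, so no scaling was added. Most probe sets are dim, so these medians do not show that brighter genes are on 1 scale. For arrays, their number (2 a group) limits the precision. Of 57381 probe sets, 187 controls were left out; 22436 had 1 gene in the platform annotation, which can be old, 95 had several and 34663 had none. Names came from the RefSeq gene table of assembly ASM3414082v1, in which all 17905 genes were found. The base-2 logarithm was taken with a pseudocount of 1. Anoxic was tested against aerobic for the 18826 probe sets whose mean reached 4, using lmFit and eBayes of limma 3.58.1 (R 4.3.3; 2-sided, Benjamini-Hochberg over all tested; 2 residual and 2.34 prior degrees of freedom). An exact permutation test of 2 against 2 cannot go below 0.333. Where the dimmer group lay at or below 4.05, an at least N-fold bound counts from 4.05 to the brighter mean. Such a bound leaves out the error of the brighter mean. Genes named are the markers ERF24, WRKY62 and WRKY76, the called members with the largest changes, up to 4 each way in a family, each family's highest-reading gene, and the extreme called gene each way of lists upstream or downstream; further members were named after their values were seen. Members and lists were chosen with earlier results of these data known. Trihelix and other genes with GT names were left out of the seed markers. On simulated data of 18826 probe sets, the calls took in 55 of 100 probe sets changed by 3 on the log2 scale. They took in 0 of 100 changed by 1.5, and 1 of 18626 unchanged. Far fewer probe sets changed in the simulation than in the data, where 33.9% of tested genes were called. Adjustment of p was therefore stricter in the simulation, and its counts are not rates for these data. Promoter and protein sequences are not analysed here. Replicate numbers recur in both groups, but nothing says that they pair arrays.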

Additional observations from a re-analysis of the deposited data

How the results depend on the processing

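With no filter on mean level, 9 of the 10 calls were lost, among them DREB1A (adjusted p = 0.0558), and BZIP02 remained: 1 gene was called higher and 0 lower, by family BZIP 1 and 0 and WRKY, NAC, DREB and ERF 0. Calls over all genes then were 489 higher and 704 lower. With a mean of at least 6, which leaves out DREB1A, WRKY76, NAC45 and BZIP02, it was 3 and 3: BZIP 1 higher, NAC 1 higher, DREB and ERF 1 lower, WRKY 0 lower. By symbol alone 3 genes qualify, with 0 calls in any family; WRKY and BZIP had 1 gene above background in each group, DREB, ERF and NAC 0, and the medians were 0.92 for WRKY and 0.93 for BZIP. With the prefix Os allowed, 49 genes qualify, BZIP had 3 called higher and 3 lower, a median of -0.067, and 11 and 12 genes above background in air and anoxia. Without a fold threshold BZIP had 3 higher and 2 lower. Leaving out 1 array gave 0 to 5 genes higher and 1 to 5 lower: BZIP 0 to 2 and 0 to 1, NAC 0 to 2 and 0 to 1, WRKY 0 to 1 and 0 to 1, DREB and ERF 0 and 1 to 2, with medians of -0.095 to 0.60 for BZIP, -0.87 to -0.17 for DREB and -0.38 to 0.75 for WRKY. Over all genes the calls fell to 451 higher and 1011 lower without aerobic replicate 1, and to 587 and 855 without aerobic replicate 2. Such fits hold a lone array in a group, taken to vary like the other group. With the replicate number as a block NAC068 lost its call (adjusted p = 0.0771), which left NAC 1 higher; deviations of same-numbered arrays correlated at -0.14, and the crossed pairing, added after seeing the data, gave 6 higher and 5 lower. Quantile normalization gave 6 and 5, with NAC6 added. A pseudocount of 16, an intensity trend, the linear mean for choosing the probe set and the mean over probe sets changed no call of the 25 genes. A floor of 5 in linear intensity changed none either. It lay below every reading of the 25 genes and left their changes as measured, so it was no test of dim readings. With the pseudocount of 16 the changes of NAC45, DREB1A and BZIP02 were 2.45, -2.95 and 1.14. The cause of these differences was not tested, apart from fewer genes or arrays where a setting removes them.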

Other observations

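A further 11 genes carry a BZIP number only with the prefix Os, nearly all of them TGA factors, a group known for working with NPR1-type coactivators in defence, and these were set apart from the genes above. Of the 5 tested, 1 was called higher and 2 lower, against 15.9% and 18.0% of all tested genes. With 5 genes these counts are not evidence on the group. OsbZIP08 (LOC9266109) read 4.65 and 4.51 in air and 7.64 and 7.11 in anoxia and rose by 2.80 ± 0.25 on the log2 scale (limma, adjusted p = 0.00332). With a single aerobic array in the fit it was not called (0.0524 and 0.0537). OsbZIP37 (LOC9270267) read 7.04 and 8.05 in air and 4.09 and 4.11 in anoxia, just above background, and fell by 3.45 ± 0.38 (adjusted p = 0.00530), a call kept whichever array was left out. OsbZIP63 (LOC4344349), also named TGA2.1, fell by 1.23 ± 0.23 (adjusted p = 0.0180), a call that held only without anoxic replicate 1. OsbZIP79 and OsbZIP83 read 2.85 and 4.42, and 3.36 and 4.21, on the 2 aerobic arrays and stayed between 2.67 and 3.22 in anoxia, and neither was tested.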
